A study of Mus musculus with 6 samples.

Results

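The 42 genes described here are the antioxidant, glutathione and metallothionein genes of pancreatic stellate cells (PSCs): the regulators Nfe2l2 and Keap1, enzymes that make and use glutathione and thioredoxin, peroxide- and superoxide-removing enzymes, the NADPH-supplying enzymes of the pentose phosphate pathway, and Mt1 and Mt2. They were chosen by symbol, through the Ensembl identifiers of GENCODE M21, and each symbol matched 1 of the 55426 rows of the count table. All 42 passed the filter on low counts, which left 16207 genes to test. Primary PSCs of C57BL/6 mice were grown in a 3D coculture with organoids of mT3, a pancreatic ductal adenocarcinoma (PDAC) line derived from a primary mouse tumor, and RNA of the PSCs was sequenced in 3 samples kept in normoxia (21% O2) and 3 kept in hypoxia (1% O2) for 48 h. Both groups therefore shared the coculture, so oxygen was the only labelled difference, and no PSCs cultured alone are part of the comparison. Per the methods, the PSC lines came from male and female mice aged 8–12 weeks, were at passages 2 to 4, and sat in Matrigel in a transwell insert above the organoids. Mixed fibroblast cultures of this kind can hold other pancreatic cells, and the labels do not say whether the 3 samples of a group came from separate PSC lines, so p-values measure the spread between these samples only.

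Cells remove superoxide with dismutases and hydrogen peroxide with catalase, peroxiredoxins and glutathione peroxidases, and the last 2 families are recharged by thioredoxin or glutathione with electrons that come from NADPH. The transcription factor NRF2, encoded by Nfe2l2 and held down by its adaptor KEAP1, switches on many of these genes through antioxidant response elements in their promoters. Metallothioneins are short cysteine-rich proteins that bind zinc and copper, and their genes are switched on by metals through metal response elements, and in many cell types by hypoxia and glucocorticoids.

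Library totals were 24749601 to 25914892 counts in normoxia and 25847719 to 31925054 in hypoxia, so that 3 counts, taken as the smallest amount told from none, were 0.0943 to 0.122 CPM (counts scaled to the TMM-adjusted library total). Such floors cover counting error only. The hypoxia labels held in the data: 10 of 10 genes known to respond to low oxygen were higher in hypoxia, by 0.82 to 5.13 on the log2 scale. Fibroblast genes were abundant, while the epithelial genes Epcam, Cdh1 and Krt8 lay at or near 0 in the 6 samples, although Krt19 and Sox9 were called higher. Of 8 acinar markers, 5 were at 0 throughout, but Cela1 was at 8.23 to 12.4 CPM over the 6 samples. Macrophage and adipocyte markers were both present and both lower in hypoxia. The 15 macrophage markers summed to 1108 to 1966 CPM in normoxia and 573 to 1048 CPM in hypoxia, with 9 called lower and 0 higher. Of 8 adipocyte markers, 7 could be tested and all 7 were called lower, with a median log2 fold change of -3.55. Lpl, the most abundant of them and the least changed, was at 4563 to 5287 CPM in normoxia and 3128 to 3413 CPM in hypoxia. The other adipocyte markers summed to 665 to 1654 CPM in normoxia, highest in replicate 2, and 77.3 to 99.7 CPM in hypoxia. Mitochondrially encoded transcripts took 0.985% to 1.43% of counts in normoxia and 0.645% to 0.740% in hypoxia. In bulk RNA, fewer cells of a type and less RNA per cell cannot be told apart, and the part of these shifts in the values below was not tested.

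A gene was called when its adjusted p in edgeR's quasi-likelihood test was under 0.05 and its fold change beyond 1.5. By that rule 8 of the 42 genes were higher in hypoxia (Mt1, Mt2, Slc7a11, Prdx5, Prdx6, Sod2, Nfe2l2 and Srxn1) and 6 were lower (Gstt1, G6pdx, Cat, Mgst1, Mgst3 and Sod3). Among all tested genes, 34.2% passed this rule, 18.9% upward and 15.3% downward. The 14 called here are 33.3% of the 42, so the redox genes were called about as often as any others. Their median log2 fold change was -0.02, beside -0.00398 for all genes tested, and the range was -1.66 to 3.16. By the adjusted p alone 30 passed, 13 higher and 17 lower, beside 62.7% of all genes. The 3 hypoxic samples lay wholly above or below the 3 normoxic ones in 33 of the 42, beside 68.9% of all genes. The genes of a role often parted from each other, and the following values are given role by role.

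**Figure D1:**
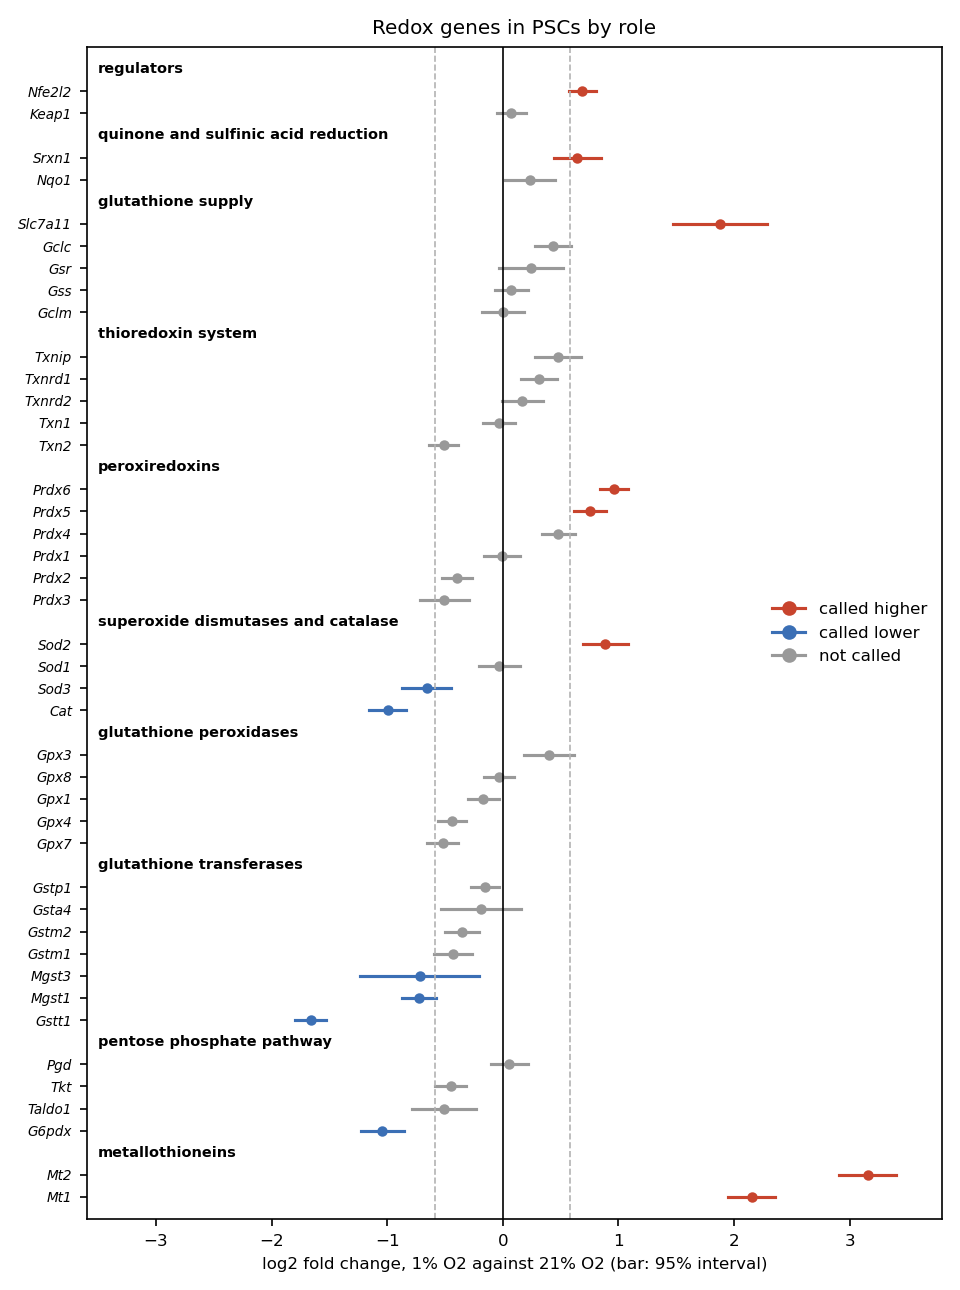
Log2 fold changes in hypoxia against normoxia of the 42 genes, grouped by role, with 95% intervals from the edgeR fit (3 samples a group); dashed lines mark a fold of 1.5. Both metallothioneins and Slc7a11 stand furthest to the right, Gstt1 furthest to the left, and all 7 glutathione transferases lie left of 0.

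The metallothioneins showed the largest differences in the list. Mt2 (ENSMUSG00000031762, chromosome 8, 94172664 to 94173568, plus strand, GRCm38) was at 115, 119 and 147 CPM in normoxia and at 1050, 1226 and 1115 CPM in hypoxia. It rose 8.91-fold (log2 fold change 3.16, standard error 0.11, adjusted p = 6.94e-08). Mt1 (ENSMUSG00000031765), its neighbour on the same strand at 94179082 to 94180327, was at 207, 225 and 252 CPM in normoxia and at 972, 1101 and 971 CPM in hypoxia (log2 fold change 2.15, standard error 0.09, adjusted p = 1.79e-07). For both genes the lowest hypoxic sample was several times the highest normoxic one. The reads of the pair together made up 322 to 399 CPM in normoxia and 2022 to 2327 CPM in hypoxia. Mt2 gained on Mt1: its reads were 0.555 ± 0.028 of those of Mt1 in normoxia and 1.11 ± 0.033 in hypoxia (SD, n = 3 each), and the 3 ratios of each group did not overlap. Which of the pair was higher per length depends on the length taken, because 1 Mt1 transcript of the annotation keeps its introns: Mt2 to Mt1 was 1.18 in normoxia over the union of exons and 0.597 over the spliced transcripts Mt1-201 and Mt2-201, of 549 and 511 bases, while the 2.01-fold gain was the same. An antisense transcript, Gm45774, overlaps Mt2, and its counts were 0.837% to 3.1% of those of Mt2.

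The stretches before both starts are shown because metallothionein genes are the textbook targets of the metal response element. The letters searched were TGCACNC and TGCGCNC on both strands, in the 250 bases before each start of the RefSeq promoter table (GRCm38.p6), and capitals mark the matches.
Mt2 (chr8:94172368-94172617, plus strand): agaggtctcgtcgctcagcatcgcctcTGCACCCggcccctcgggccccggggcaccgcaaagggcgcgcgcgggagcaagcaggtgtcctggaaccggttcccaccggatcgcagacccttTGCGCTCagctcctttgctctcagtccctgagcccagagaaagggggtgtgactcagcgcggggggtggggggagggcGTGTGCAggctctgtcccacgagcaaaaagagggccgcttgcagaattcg
Mt1 (chr8:94178839-94179088, plus strand): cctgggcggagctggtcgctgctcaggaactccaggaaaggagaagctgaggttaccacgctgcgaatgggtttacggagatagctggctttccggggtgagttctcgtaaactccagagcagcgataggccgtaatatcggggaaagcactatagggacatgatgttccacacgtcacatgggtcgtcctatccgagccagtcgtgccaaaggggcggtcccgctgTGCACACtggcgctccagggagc
Mt2 held 3 matches and Mt1 held 1. Among the 32851 windows listed there, 21.4% held at least 1, and of the 45 windows of the 37 redox genes with an entry 13 did. Mt1 has other annotated starts at 94179211 and 94179241, downstream of the one used, whose flanks the window covers only in part. Mt2 has another at 94172860, also downstream of its window. Bases between each window and those starts were not searched, so the numbers of matches cannot be compared between Mt1 and Mt2. A match is a description of letters and not a bound site. Mt1 also held the hypoxia response element core ACGTG once, on the minus strand, and Mt2 held none in this window. That core was found in 16.6% of all windows and in 9 of the 45.

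Of the 14 other metallothionein and zinc genes tested, 4 were called higher and 0 lower. Mt3, a metallothionein gene best known from the brain, was at 0 to 0.0811 CPM in normoxia, under the floor, and at 4.28, 4.75 and 5.06 CPM in hypoxia (adjusted p = 1.26e-06). Slc39a14, a zinc importer, had the next largest difference, at 126, 114 and 135 CPM in normoxia and 726, 700 and 763 CPM in hypoxia (log2 fold change 2.55, adjusted p = 4.73e-08). The importers Slc39a13 and Slc39a6 were higher by 1.18 and 0.98 on the log2 scale. Mtf1, the factor that reads metal response elements, differed by 0.17 (adjusted p = 0.0324) and the zinc exporter Slc30a1 by 0.48 (adjusted p = 0.000361), both below the fold asked for.

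**Figure D2:**
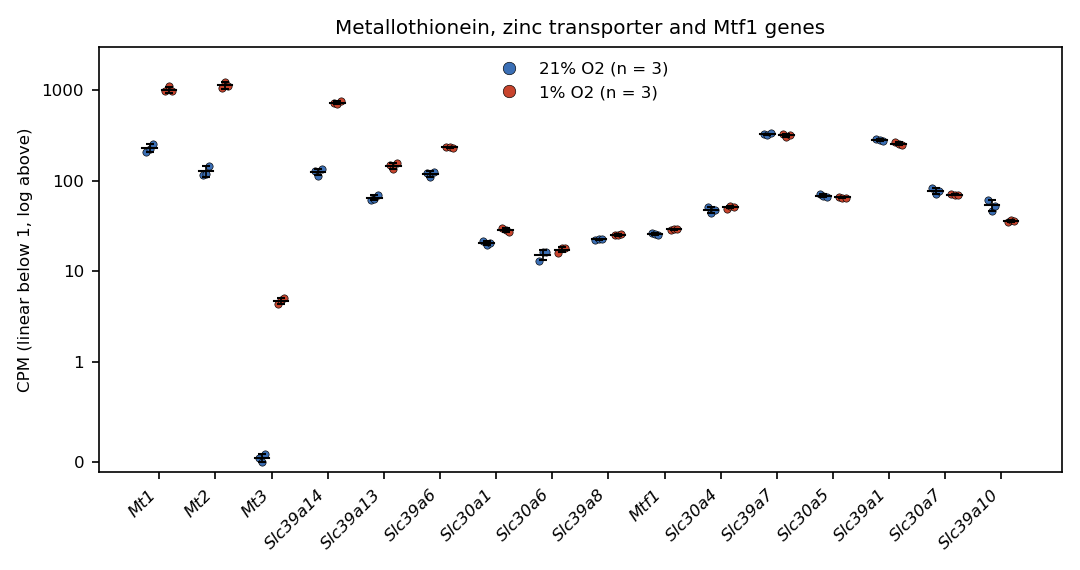
CPM of Mt1, Mt2 and the 14 other tested metallothionein and zinc genes in every sample (points), with mean and SD (3 samples a group); the axis is linear below 1 and logarithmic above. Mt1, Mt2, Mt3 and Slc39a14 stand furthest above their normoxic samples. Slc39a13 and Slc39a6 also stand clear of theirs, and the other zinc transporters differ less.

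The regulators of the NRF2 pathway differed from each other. Nfe2l2 was at 129, 121 and 129 CPM in normoxia and at 200, 203 and 209 CPM in hypoxia, so that every hypoxic sample lay above every normoxic one. On the log2 scale it rose by 0.69 (standard error 0.05, adjusted p = 5.92e-06). Keap1 was at 87.4, 86.4 and 89.9 CPM in normoxia and at 98.6, 90.8 and 88.6 CPM in hypoxia. Its groups overlapped, and the 95% interval of its log2 fold change ran from -0.05 to 0.20 (adjusted p = 0.269). An antisense transcript, Gm16754, overlaps Keap1, with 0.925% to 2.15% of its counts in normoxia and 7.85% to 12.3% in hypoxia, and without a stated strand setting reads of the overlap cannot be assigned. The ratio of Nfe2l2 to Keap1 per length was 1.78 ± 0.048 in normoxia and 2.73 ± 0.21 in hypoxia (SD, n = 3 each).

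Of Srxn1 and Nqo1, which NRF2 is known to switch on, only Srxn1 was called higher. Srxn1, sulfiredoxin, which repairs overoxidized peroxiredoxins, was at 151, 136 and 146 CPM in normoxia and at 203, 259 and 216 CPM in hypoxia (log2 fold change 0.65, standard error 0.09, adjusted p = 0.000234). Its hypoxic samples were spread more widely than its normoxic ones, and without hypoxia replicate 2, the highest, the log2 fold change was 0.53 and the fold fell under 1.5. Nqo1, a quinone reductase and a classical NRF2 target, was at 11.5 ± 0.605 CPM in normoxia and 13.6 ± 1.21 CPM in hypoxia (SD, n = 3 each). The difference was 0.23 on the log2 scale, with an interval of 0.02 to 0.45 and an adjusted p of 0.0582. Every hypoxic sample of Nqo1 lay above every normoxic one.

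Glutathione supply was led by a single gene. Slc7a11 (ENSMUSG00000027737, chromosome 3, 49892526 to 50443614, minus strand) encodes xCT, the cystine importer that feeds glutathione synthesis. It was at 18.3, 12.4 and 16.6 CPM in normoxia and at 47.4, 73.1 and 53.7 CPM in hypoxia, so even the lowest hypoxic sample was above every normoxic one. It rose 3.69-fold (log2 fold change 1.88, standard error 0.18, adjusted p = 2.36e-05). Its partner chain Slc3a2 differed by 0.16 (adjusted p = 0.102), and the ratio of Slc7a11 to Slc3a2 per length went from 0.0237 to 0.0774. Of the synthesis enzymes, Gclc, the catalytic subunit of the rate-limiting ligase, was higher by 0.44 (adjusted p = 0.000515) but short of a fold of 1.5. Its modifier subunit Gclm had a log2 fold change of 0.01 with an interval of -0.18 to 0.19, and Gss, the second enzyme of the synthesis, one of 0.07 with an interval of -0.07 to 0.21. Gsr, which regenerates reduced glutathione, had a log2 fold change of 0.25 with an interval of -0.03 to 0.52. Acss2 overlaps Gss on the opposite strand with as many reads as Gss itself or more in normoxia, so the value of Gss is uncertain.

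Hypoxia replicate 2 was the highest of the 6 samples for Slc7a11, Srxn1, Gclc, Gclm, Gsr and Txnrd1, a group picked after these values were seen. Without that sample the log2 fold change of Slc7a11 was still called, and its lowest value when any 1 sample was left out was 1.68.

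Antioxidant response element cores were searched as TGACNNNGC, and, after the sequences had been seen, as the variant TGAGNNNGC, on both strands. The windows of 2 genes that rose and 2 that fell are shown because the letters occur in both, with capitals at the TGAGNNNGC matches of Slc7a11 and Srxn1 and at the TGACNNNGC matches of G6pdx and Mgst1.
Slc7a11 (chr3:50443614-50443863, minus strand): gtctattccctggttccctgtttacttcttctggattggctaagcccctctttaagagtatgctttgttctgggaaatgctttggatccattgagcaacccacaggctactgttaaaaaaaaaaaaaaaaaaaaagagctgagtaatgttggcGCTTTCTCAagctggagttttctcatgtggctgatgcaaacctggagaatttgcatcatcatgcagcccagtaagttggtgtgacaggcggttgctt
Srxn1 (chr2:152105274-152105523, plus strand): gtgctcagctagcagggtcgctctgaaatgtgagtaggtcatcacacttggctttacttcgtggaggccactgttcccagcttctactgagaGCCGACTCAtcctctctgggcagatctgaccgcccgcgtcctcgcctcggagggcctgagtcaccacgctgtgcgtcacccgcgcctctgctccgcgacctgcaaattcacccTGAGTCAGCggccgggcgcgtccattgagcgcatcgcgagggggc
G6pdx (chrX:74428881-74429130, minus strand): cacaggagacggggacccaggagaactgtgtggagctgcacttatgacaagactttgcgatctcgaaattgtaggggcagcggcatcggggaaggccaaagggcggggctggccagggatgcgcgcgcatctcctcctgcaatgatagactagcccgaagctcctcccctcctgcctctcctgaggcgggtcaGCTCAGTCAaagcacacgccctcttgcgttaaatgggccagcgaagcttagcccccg
Mgst1 (chr6:138140277-138140526, plus strand): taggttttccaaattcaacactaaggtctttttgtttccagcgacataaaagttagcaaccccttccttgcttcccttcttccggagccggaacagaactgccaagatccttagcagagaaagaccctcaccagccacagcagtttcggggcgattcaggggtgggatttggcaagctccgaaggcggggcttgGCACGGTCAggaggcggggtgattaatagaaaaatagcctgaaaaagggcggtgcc
Srxn1 held 2 matches and the other 3 windows 1 each, some of them on the strand opposite to the gene. TGACNNNGC was found in 10.2% of all windows and in 8 of the 45 of the redox genes, of which 2 belonged to genes called higher (Mt2 and Nfe2l2), 2 to genes called lower and 4 to genes not called. TGAGNNNGC was found in 14.4% of all windows and in 6 of the 45. Of these, 2 belonged to genes called higher (Slc7a11 and Srxn1), 1 to a gene called lower (Gstt1) and 3 to genes not called.

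Among the 23 other NRF2-linked genes, 3 were called higher and 4 lower. Maff, a small MAF protein of the kind that pairs with NRF2 on DNA, had the largest difference upward, at 33.9, 37.6 and 40.2 CPM in normoxia and 112, 121 and 102 CPM in hypoxia (log2 fold change 1.58, adjusted p = 6.78e-07). Sesn3, a sestrin, had the largest downward, at 169, 134 and 152 CPM in normoxia and 56.6, 51.4 and 52.4 CPM in hypoxia (log2 fold change -1.51, adjusted p = 1.04e-06). Counted without the fold threshold, 11 of the 23 were higher and 9 lower.

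In the thioredoxin system 0 of 5 genes were called. Txnip, which binds and inhibits thioredoxin and follows glucose supply, and Txnrd1, the cytosolic thioredoxin reductase, were higher by 0.48 (adjusted p = 0.00131) and 0.31 (adjusted p = 0.00347). Txn1, cytosolic thioredoxin, was at 167 ± 5.53 CPM in normoxia and 164 ± 10.3 CPM in hypoxia (SD, n = 3 each), with an interval of its log2 fold change of -0.17 to 0.11. The mitochondrial thioredoxin Txn2 was lower by 0.51 (adjusted p = 5.62e-05), with every hypoxic sample below every normoxic one. Its reductase Txnrd2, the gene with the lowest level per length among those not called, was at 13.3, 14.0 and 13.02 CPM in normoxia and at 14.7, 15.7 and 15.0 CPM in hypoxia (log2 fold change 0.17, adjusted p = 0.0855).

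The peroxiredoxins, which reduce peroxides with a cysteine, parted by gene. Prdx6, the member with a single active cysteine that works with glutathione, was at 130, 123 and 126 CPM in normoxia and at 236, 250 and 252 CPM in hypoxia (log2 fold change 0.96, standard error 0.05, adjusted p = 9.35e-07). Prdx5, found in mitochondria, peroxisomes and cytosol, was at 208, 224 and 217 CPM in normoxia and at 357, 388 and 348 CPM in hypoxia (log2 fold change 0.75, adjusted p = 9.37e-06). In both the groups were far apart. Prdx4, the peroxiredoxin of the endoplasmic reticulum, was higher by 0.48 (adjusted p = 0.000148). Prdx1, the most abundant of the 6 in reads, had a log2 fold change of -0.01 with an interval of -0.16 to 0.15. Cytosolic Prdx2 and mitochondrial Prdx3 were lower by 0.39 and 0.50 on the log2 scale (adjusted p = 0.000337 and 0.00142), short of the fold asked for, and Prdx3 passed it (-0.59) when normoxia replicate 3 was left out. Trmt112 overlaps Prdx5 and Junb overlaps Prdx2 on the opposite strand, with 9.62% to 17.6% and 96.7% to 239% of their counts, so the value of Prdx2 is uncertain. The ratio of Prdx6 to Prdx1 per length was 0.127 ± 0.0063 in normoxia and 0.250 ± 0.012 in hypoxia (SD, n = 3 each).

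The 3 superoxide dismutases each did something different, and catalase was lower. Sod2, the manganese enzyme of the mitochondrial matrix, was at 198, 245 and 196 CPM in normoxia and at 390, 390 and 403 CPM in hypoxia (log2 fold change 0.89, standard error 0.09, adjusted p = 2.56e-05). Sod1, the copper-zinc enzyme of the cytosol, was at 153 ± 16.6 CPM in normoxia and 150 ± 6.64 CPM in hypoxia (SD, n = 3 each), with an interval of -0.21 to 0.15. Sod3, the secreted copper-zinc enzyme, was at 206, 188 and 206 CPM in normoxia and at 145, 110 and 124 CPM in hypoxia (log2 fold change -0.66, standard error 0.09, adjusted p = 0.000285). The groups of Sod3 did not overlap, but without hypoxia replicate 2, its lowest sample, the log2 fold change was -0.57 and the fold fell under 1.5. Cat, the peroxisomal catalase that splits hydrogen peroxide, was at 178, 193 and 166 CPM in normoxia and at 88.9, 95.3 and 84.8 CPM in hypoxia. It fell by 1.00 on the log2 scale with a standard error of 0.07 (adjusted p = 4.21e-06), close to a halving in every sample. The ratio of Sod2 to Sod1 per length was 0.552 ± 0.014 in normoxia and 1.05 ± 0.064 in hypoxia, and that of Sod3 to Sod1 was 1.40 ± 0.21 and 0.899 ± 0.15 (SD, n = 3 each). Of 8 such ratios, all picked after the values were seen, each had non-overlapping groups and a 2-sided exact permutation p of 0.1, the smallest that 3 samples against 3 can give (0.1 after Benjamini-Hochberg adjustment).

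Among the glutathione peroxidases 0 of 5 genes were called. Gpx3, the secreted plasma form and the gene with the highest level per length among those not called, was at 774, 627 and 807 CPM in normoxia and at 1029, 933 and 955 CPM in hypoxia (log2 fold change 0.40, adjusted p = 0.00513). Gpx4, which reduces lipid peroxides in membranes and guards against ferroptosis, was at 338 ± 11.5 CPM in normoxia and 250 ± 7.35 CPM in hypoxia (SD, n = 3 each). The log2 fold change of -0.44 (adjusted p = 0.000118) was -0.43 when the counts of its pseudogene were added. Cytosolic Gpx1 was lower by 0.17 (adjusted p = 0.0318). Of the pair in the endoplasmic reticulum, Gpx7 was lower by 0.52 (adjusted p = 6.71e-05), while the log2 fold change of Gpx8 was -0.03 with an interval of -0.16 to 0.10.

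**Figure D3:**
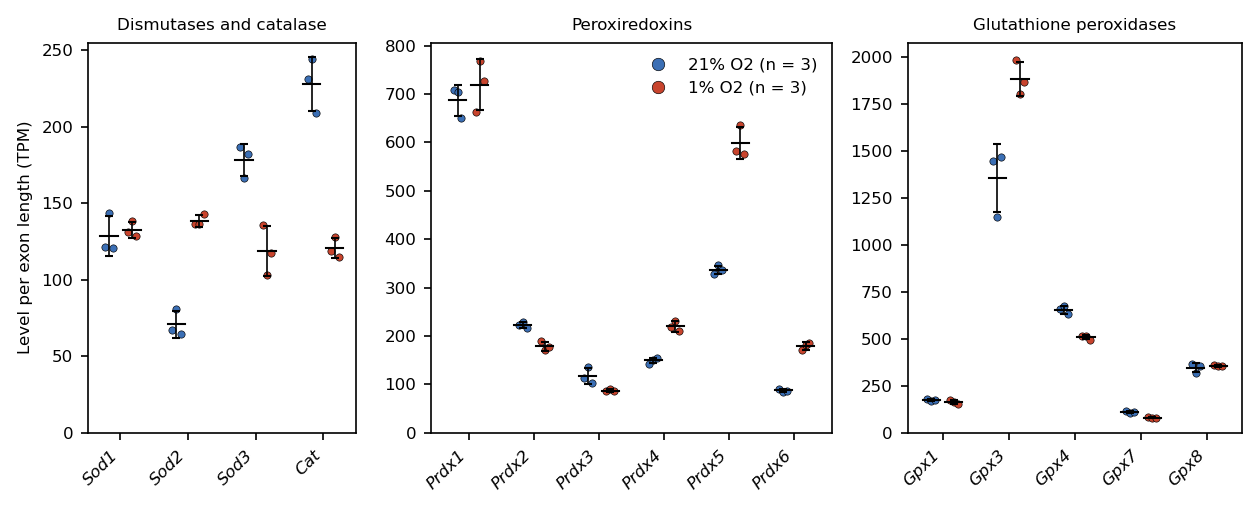
Levels per exon length (TPM, computed from the counts and the union of exons) of the superoxide dismutases with catalase, the peroxiredoxins and the glutathione peroxidases in every sample, with mean and SD (3 samples a group). Sod2, Prdx5 and Prdx6 lie above and Sod3 and Cat below their normoxic samples, while the groups of Sod1, Prdx1 and Gpx8 overlap.

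By compartment, the same mixture was seen. Of the 4 genes listed for the mitochondrial matrix, Sod2 was called higher, Txn2 and Prdx3 were lower by the adjusted p alone and Txnrd2 did not pass. Prdx5, found in mitochondria and elsewhere and so not on that list, was called higher. Of the 3 genes of the endoplasmic reticulum, Prdx4 was higher and Gpx7 lower by the adjusted p alone, and Gpx8 did not pass. Of the 2 secreted enzymes, Sod3 was called lower and Gpx3 was higher by the adjusted p alone.

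The glutathione transferases, which join glutathione to reactive compounds, had 3 of 7 genes called lower and 0 higher, beside 15.3% of all genes called lower, and 1 of the 3 calls, that of Mgst3, did not hold without certain samples. All 7 log2 fold changes were negative. Gstt1 (ENSMUSG00000001663, chromosome 10, 75783813 to 75798584, minus strand), the theta class enzyme, was at 55.0, 60.0 and 59.2 CPM in normoxia and at 18.5, 18.3 and 18.2 CPM in hypoxia. It fell by 1.66 on the log2 scale with a standard error of 0.06 (adjusted p = 8.08e-08), and its 3 hypoxic samples were nearly equal (SD 0.186 CPM). Mgst1, a membrane-bound enzyme that also acts on lipid peroxides, was at 288, 323 and 285 CPM in normoxia and at 176, 189 and 178 CPM in hypoxia (log2 fold change -0.72, standard error 0.07, adjusted p = 1.73e-05). Mgst3, a related microsomal enzyme, was at 7.24, 14.2 and 8.76 CPM in normoxia and at 5.97, 5.62 and 6.76 CPM in hypoxia (log2 fold change -0.72, standard error 0.23, adjusted p = 0.0209). The call of Mgst3 rested on normoxia replicate 2: without it the log2 fold change was -0.39, under a fold of 1.5, and without hypoxia replicate 1 or 2 the adjusted p was 0.0548 and 0.0659. Gstm1, Gstm2 and Gstp1 were lower by 0.43, 0.35 and 0.15 on the log2 scale (adjusted p = 0.000733, 0.0013 and 0.0331). Gsta4, which acts on the lipid aldehyde hydroxynonenal, had a log2 fold change of -0.19 with an interval of -0.53 to 0.15. The Gstm genes are close copies that can share reads, and the 7 of them summed differed by -0.37 (adjusted p = 0.00092), likewise not called. Of the 23 other glutathione and transferase genes tested, 1 was called higher and 7 lower. Gstm7 had the largest difference downward, at 1.81, 3.795 and 2.43 CPM in normoxia and 0.785, 0.383 and 0.440 CPM in hypoxia (log2 fold change -2.34, adjusted p = 0.000494), and Ggt7, a gamma-glutamyltransferase, was the 1 called higher (0.82, adjusted p = 7.35e-05).

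The pentose phosphate pathway, a main source of the NADPH that these systems consume, was lower at its first step. G6pdx (ENSMUSG00000031400, chromosome X, 74409483 to 74429194, minus strand), the glucose-6-phosphate dehydrogenase, was at 140, 170 and 141 CPM in normoxia and at 70.4, 77.1 and 71.7 CPM in hypoxia. It fell by 1.04 on the log2 scale with a standard error of 0.08 (adjusted p = 8.25e-06). Pgd, the next NADPH-making enzyme, was at 315 ± 28.1 CPM in normoxia and 327 ± 11.5 CPM in hypoxia (SD, n = 3 each), with an interval of -0.11 to 0.22. The ratio of G6pdx to Pgd per length was 0.998 ± 0.026 in normoxia and 0.467 ± 0.010 in hypoxia (SD, n = 3 each). The enzymes of the non-oxidative branch, Tkt and Taldo1, were lower by 0.45 and 0.51 (adjusted p = 0.00019 and 0.00574), and Taldo1 passed the fold threshold (-0.61) only when normoxia replicate 3 was left out. Ikbkg shares 418 exonic bases with G6pdx on the opposite strand and went from 33.8% to 48.1% of its counts in normoxia to 147% to 163% in hypoxia, the direction opposite to that of G6pdx. Without a stated strand setting, reads of the overlap cannot be assigned, so the value of G6pdx and its ratio to Pgd are uncertain to that extent. Of the 11 other NADPH source genes tested, 2 were called higher and 5 lower. One of the 5, Nnt, is on 2 rows of the table, and only the row with the longer gene model was called (-1.25 against -0.46, adjusted p = 0.000756 and 0.168). Idh1, the cytosolic NADP-dependent isocitrate dehydrogenase, was at 358, 425 and 349 CPM in normoxia and 140, 142 and 136 CPM in hypoxia (log2 fold change -1.44, adjusted p = 9.02e-07). Me2, a mitochondrial malic enzyme, had the largest difference upward, at 19.0, 19.4 and 19.5 CPM in normoxia and 47.6, 49.1 and 45.9 CPM in hypoxia (adjusted p = 2.63e-07).

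**Figure D4:**
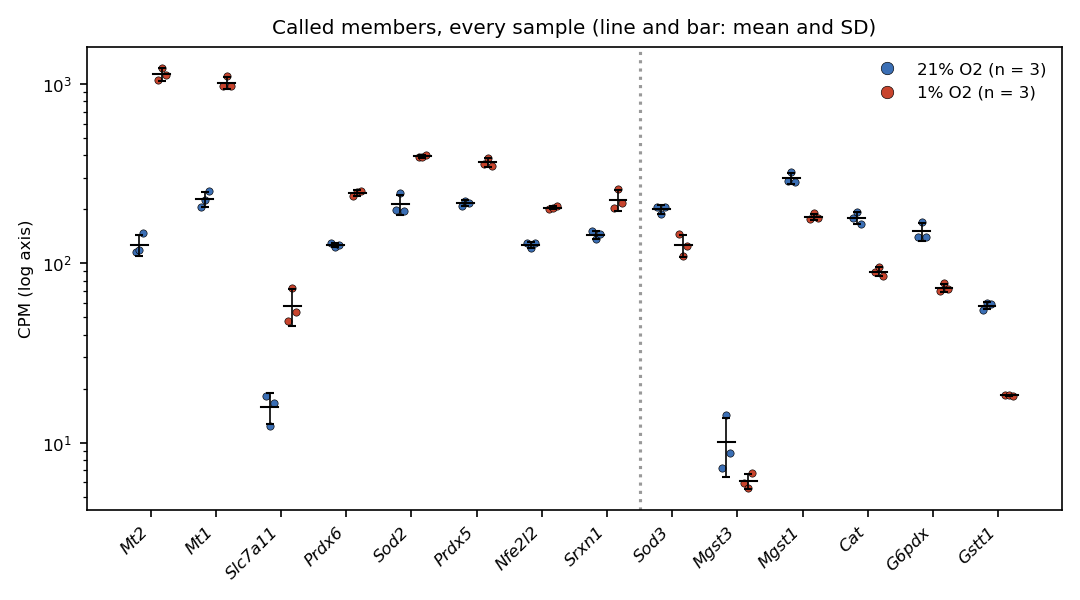
CPM (logarithmic axis) of the 14 called genes in every sample, ordered by fold change, with mean and SD (3 samples a group); the dotted line parts the 8 higher from the 6 lower. The groups do not overlap in any of them, and the normoxic samples of Mgst3 are spread the most widely.

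Of the 6 genes called lower, 5 had their highest value in normoxia replicate 2, the sample with the most adipocyte and macrophage marker RNA. This was not particular to them: many other members also had their highest normoxic value in that sample. Among these were Sod2 (198, 245 and 196 CPM) and Prdx5 (208, 224 and 217 CPM), called higher, and Pgd (296, 347 and 301 CPM), not called. Set against the normoxic mean, normoxia replicate 2 was at 1.41 for Mgst3, 1.13 for G6pdx, 1.08 for Mgst1, 1.08 for Cat and 1.03 for Gstt1. It was at 1.07 for Lpl, 1.63 for the sum of the other adipocyte markers and 1.28 for that of the macrophage markers. Without it, the log2 fold changes were -0.95 for G6pdx, -0.67 for Mgst1, -0.94 for Cat and -1.64 for Gstt1, and all 4 were still called, but the adipocyte markers also differed between the remaining samples (Plin1 was at 180 and 144 CPM in normoxia and 7.15, 11.8 and 7.10 CPM in hypoxia). Sod3 had its lowest normoxic value in that sample. Which cells made the adipocyte and macrophage marker RNA was not tested, nor was the part of such cells in the lower genes.

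**Figure D5:**
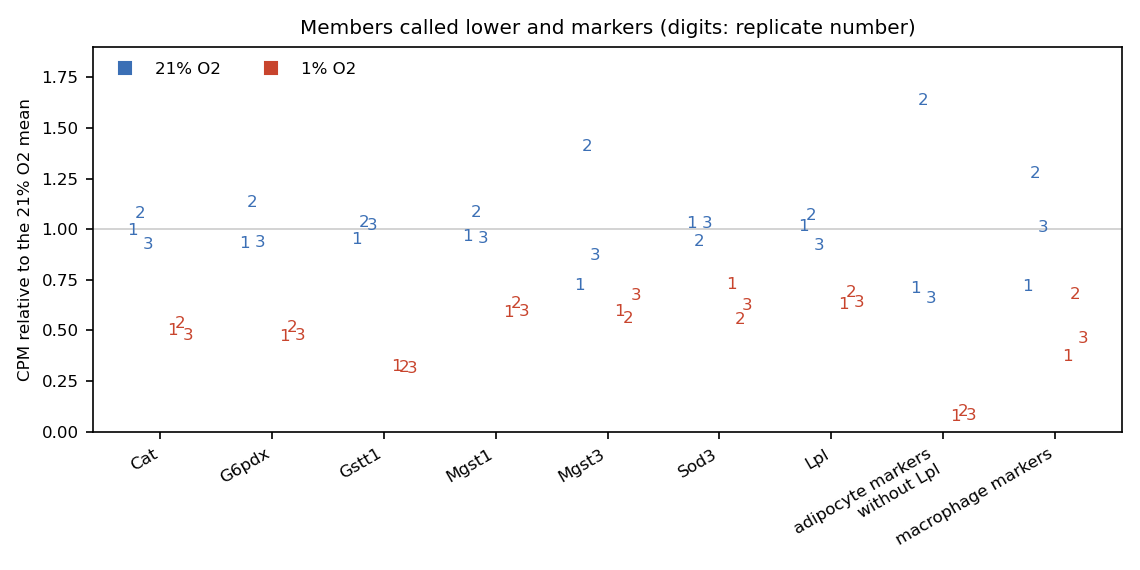
CPM relative to the normoxic mean of the 6 genes called lower, of Lpl, and of the summed other adipocyte markers and macrophage markers, with each sample drawn as its replicate number. Hypoxic samples lie at 0.313 to 0.319 for Gstt1, 0.475 to 0.533 for Cat, 0.631 to 0.688 for Lpl and 0.0764 to 0.0985 for the other adipocyte markers.

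Genes around the 42 that handle thiols or make oxidants were listed as well. Of 21 other thiol redox genes tested, 0 were called higher and 5 lower, led by Selenop, the secreted selenium carrier, at 801, 898 and 797 CPM in normoxia and 277, 374 and 285 CPM in hypoxia (log2 fold change -1.42, adjusted p = 8.71e-06). Of 7 NADPH oxidase genes tested, 1 was called higher (Duox1, 0.76, adjusted p = 0.00262) and 4 lower, with Cybb, the phagocyte oxidase subunit, lowest at -0.86 (adjusted p = 0.00677). Cybb and Ncf1, also called lower, are phagocyte genes and were highest in normoxia replicate 2, like the macrophage markers. Nox4, an oxidase of fibroblasts and other non-phagocytic cells, was called lower as well, at 6.28, 5.01 and 6.09 CPM in normoxia and 3.30, 3.29 and 3.17 CPM in hypoxia (log2 fold change -0.83, adjusted p = 0.000893), with its lowest normoxic value in replicate 2. Over the 99 tested of 111 such other pathway genes, 11 were called higher and 25 lower, with a median log2 fold change of -0.20. In all they were called in 36.4%, beside 34.2% of all genes tested (18.9% higher and 15.3% lower).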

How the data were processed

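RNA of 6 PSC samples was analysed. From poly(A) libraries read on a NovaSeq-6000, the authors removed adapters (Cutadapt), aligned to GRCm38 (STAR 2.6.1b), estimated gene counts (RSEM 1.3.1) and deposited expected counts per gene, not normalized between samples. The annotation release and the strand setting are not given in the sources used here. Expected counts are shared out between close copies by the software, so near-identical genes are less certain. The deposited values were whole numbers. Gene names, coordinates and exon lengths came from GENCODE M21, which held 55240 of the 55426 row identifiers and not 186. The 5 transgene rows were at 0.

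Groups came from the labels. edgeR 4.0.16 (limma 3.58.1, R 4.3.3) was used with filterByExpr, TMM scaling and the quasi-likelihood F test over 16207 genes, with Benjamini-Hochberg adjustment; a call needed an adjusted p under 0.05 and a fold beyond 1.5, the thresholds of the study's methods. The standard error is the size of the log2 fold change divided by the square root of F, and intervals are 95%. CPM are counts over the TMM-scaled total. TPM divide counts by the union of exons, so levels between genes depend on that length. The fit was tested on simulated data. The main fit ignores replicate numbers. Alternatives were DESeq2 1.42.0 and its size factors, upper-quartile scaling, no filter, limma-voom, the replicate block, each sample left out, other fold thresholds and summed close copies. Promoter windows came from the RefSeq table (GRCm38.p6); no protein sequence was used here. Some single-gene values are not reported here.

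The members and lists were chosen with earlier results of these data known. Every member is accounted for: values of each sample are given for those called, the regulators, and the highest and lowest not called, and the rest by fold change. Of the other lists, the called gene with the largest change each way is named; other genes named there were chosen after their values were seen.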

Additional observations from a re-analysis of the deposited data

How the results depend on the processing

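Counts of called genes held under other scalings, DESeq2, limma-voom and no filter on low counts: 8 redox genes were called higher and 6 lower each time. Samples left out one at a time gave 7 to 8 higher and 4 to 8 lower, and a median log2 fold change between -0.07 and 0.01, so its sign is not fixed. For the other pathway genes they gave 11 to 12 higher and 23 to 26 lower. With no fold threshold the redox genes were 13 higher and 17 lower and the other pathway genes 26 higher and 51 lower. With a fold threshold of 2 they were 3 and 2, and 7 and 8. Of 512 single-gene values, 505 kept their call or stayed not called, 5 lost the call and 2 gained it. The losses and gains all came on leaving out 1 sample (Srxn1, Sod3, Mgst3, Prdx3 and Taldo1), and 0 called values reversed. Signs of genes not called could change. Without 1 sample, log2 fold changes ran from -0.10 to 0.07 (Gclm), -0.06 to 0.04 (Prdx1) and -0.09 to 0.06 (Sod1). With the replicate block, 8 redox genes were called higher and 6 lower, the median was -0.02, and 11 other pathway genes were higher and 25 lower. Over all genes tested, deviations from the group means correlated at 0.14, 0.14 and 0.04 for the same number, and every sample correlated best with its own number, a hint from the data only. Summing close copies, in part chosen after seeing the data, changed no call. Within a group, replicates differed by a chi-square of 5.68 to 22.5 per degree of freedom, more than counting error. With 3 samples a group, a permutation test of 1 gene could not pass 0.05.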
